A study of Mus musculus with 118 samples.

Results

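The cells described here are SOM+ neurons of layer 4 (L4) of mouse primary somatosensory cortex (S1), grouped by whether reads of *Calb1* were found in them. The labels place 39 of the sequenced cells in S1 L4, beside 44 in L4 of primary visual cortex (V1) and, in layer 5 (L5), 19 in V1 and 16 in S1, and 34 of the 39 were kept. Of the 5 cells left out, 1 had reads on fewer than 1500 genes and 4 had no *Sst* read. The 34 cells were chosen on *Sst*, *Gad1*, *Gad2*, *Slc17a7* and the number of genes, and they were split by the *Calb1* count, which gave 14 *Calb1*-positive cells with at least 1 read and 20 *Calb1*-negative cells with none. The values of these genes are therefore a description of the choice and not a result.

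All cells were from adult SOM-Cre/Ai9 mice, in which Cre under the somatostatin gene switches on the red marker tdTomato, so that a labelled cell expresses *Sst* or did so earlier in its life. The line also labels some fast-spiking basket cells. RNA was read by Patch-seq: the content of a cell was drawn into the recording pipette, its RNA was turned into cDNA and amplified by a form of Smart-seq2 that attaches no molecular identifiers, and reads were counted per gene. No treatment was given, and both groups share genotype, area and layer. The labels name no animal, so the 34 cells count as 1 sample and were not tested against each other. The spread is given over the dates in the labels, which need not be separate animals. The study gives fewer mice for its Patch-seq cells than the labels have dates, and which cells share a mouse is not known.

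*Calb1* encodes calbindin-D28k, a cytoplasmic EF-hand protein that binds calcium and so buffers its rise in the cell. Many cortical somatostatin interneurons contain calbindin, and it has long been used beside parvalbumin (*Pvalb*) and calretinin (*Calb2*) to divide cortical inhibitory neurons. In transcriptomic catalogues of the cortex, *Hpse*, encoding heparanase, which cuts heparan sulfate chains, and *Cbln4*, encoding a secreted cerebellin that organises synapses, mark a somatostatin type that is common in L4.

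*Calb1* (chr4:15881264-15908064, GRCm38, plus strand) varied widely among the cells that had any. The counts in 12 of the 14 positive cells were 1, 1, 2, 11, 16, 279, 428, 812, 1310, 5128, 8016 and 9066, and the 2 cells between them had 44.8 and 341.1 CPM (counts divided by the cell's total on all genes, in parts per 1000000). In CPM, the positive cells ranged from 0.545 to 4449, with a median of 312. Just inside the threshold lay 3 cells with 1 or 2 reads, and just outside lay the 20 cells with none, in which 3 reads would have equalled 0.910 to 6.01 CPM. The lowest positive cells and the negative cells were thus not separable by level at this depth. Of the 34 cells, 41.2% were positive (95% Clopper-Pearson interval 24.6 to 59.3%), 29.4% had at least 10 CPM and 23.5% had at least 100 CPM. Such an interval covers the sampling of cells only. In the same scheme 32 of 42 V1 L4 cells (76.2%, 60.5 to 87.9%), 11 of 17 V1 L5 cells (64.7%) and 8 of 16 S1 L5 cells were positive. Each share rests on 1 sample.

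**Figure D1:**
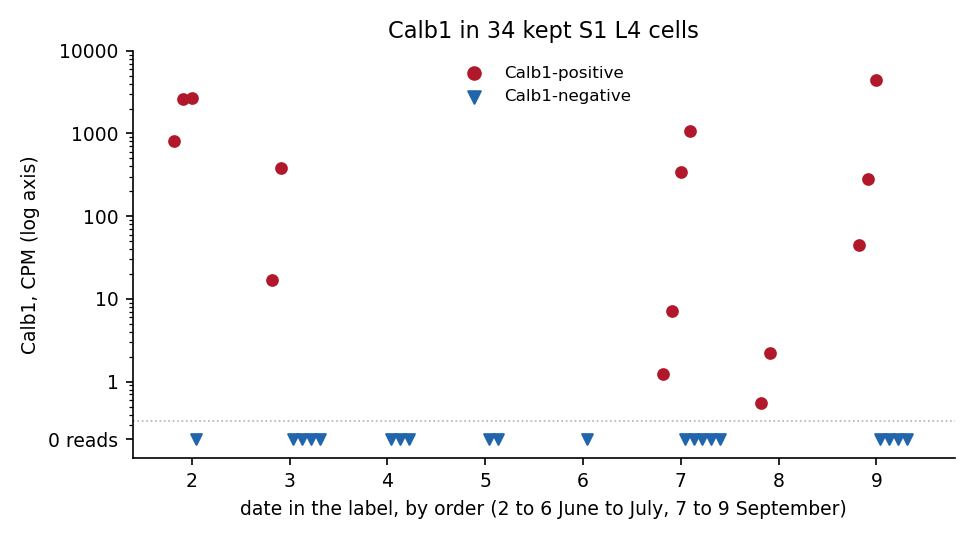
*Calb1* in CPM (log axis) in each of the 34 kept S1 L4 cells against the order of the date in its label; circles are the 14 positive cells and triangles, placed below the dotted line, the 20 cells without a *Calb1* read. Positive cells came from 5 of the 8 dates and spread from 0.545 to 4449 CPM, and dates 4, 5 and 6 gave negative cells only.

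The groups were not spread evenly over dates. The 8 dates fall into June to July (5 positive, 11 negative) and September (9 positive, 9 negative). Dates 4, 5 and 6, with 6 cells in all, gave negative cells only, and date 8 gave 2 positive cells only. Within-date differences could be computed on 3 dates with at least 2 cells of each group. Total counts on genes were alike, from 515983 to 2968674 in positive cells (median 1171560) and from 499521 to 3295232 in negative cells (median 1229580). The number of genes with a read had a median of 7508 in positive cells (2792 to 8527) and of 5687 in negative cells (4316 to 8150). With every cell thinned to 250000 reads, the medians were 6960 and 5114 genes. The part of this difference in the results below was not tested. The highest correlation between any pair of cells over all genes was 0.728, so no library was a copy of another.

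The genes that chose the cells, and *Lhx6* and *Npy*, which took no part in the choice, differed little over all cells. *Sst*, the somatostatin hormone gene, ranged from 42.6 to 2382 CPM in positive cells (median 960) and from 88.3 to 2248 CPM in negative cells (median 1007). The mean of log2(CPM + 1) was lower by a difference of -0.36, positive minus negative, with an SD of 1.77 over the 3 dates. *Gad1*, which makes GABA, differed by 0.02 (SD 0.91), *Gad2* by -0.29 (SD 1.13) and *Slc17a7* by 0.38 (SD 1.89). *Lhx6*, the transcription factor of cells from the medial ganglionic eminence, differed by -0.07 (SD 0.92) over all cells. Within the 3 dates it was higher, by 1.87, 0.08 and 1.38. *Npy*, encoding neuropeptide Y, was read in every cell and differed by 0.12 (SD 1.12). Of the markers of other inhibitory classes, 4 of 10 for *Vip* interneurons (*Vip*, *Htr3a*, *Chat* and *Adarb2*) and 4 of 10 for *Lamp5* and *Sncg* interneurons (*Sncg*, *Cplx3*, *Gja10* and *Adarb2*) had 0 counts in all 34 cells. The others were read in at least 1 cell, among them *Igf1* in 7 positive and 17 negative cells and *Npas1* in 7 and 12.

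The difference of means was computed for 6620 genes with at least 32 counts in at least 10 of the 34 cells. Since a gene can meet this filter in 1 group alone, genes present in few cells enter more easily if they differ. *Calb1* itself, with 9 such cells, did not enter. The median difference over all genes was 0.04 and the SD over genes was 1.01. A difference of at least 2 was found in 348 genes, of which 207 were higher in positive cells (3.13% of the genes tested) and the others lower (2.13%). With all cells thinned to 250000 reads, 2517 genes entered, and 60 were higher and 68 lower, so that the excess of higher genes was not seen. Of these 348 genes, 219 had the same sign in both date series and on all 3 dates, 87 of them lower (1.31% of the genes tested) and the others higher (1.99%). Across genes, the differences of the 2 series were nearly unrelated (Pearson's r = 0.06, Spearman's rho = 0.05, over genes, which are not independent replicates), and 51.2% of them agreed in sign. For no gene tested were the groups free of overlap: the highest cell of the lower group always reached the lowest cell of the other.

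The 15 genes with the largest differences each way and the same sign throughout were picked, nearly all of which are named below, and their differences in S1 L4 describe how they were picked. In most of them the difference came from the number of cells with reads. It is then not a fold change of level. *Nol11*, for example, differed by 4.07, while its reads pooled over cells gave 129.9 CPM in positive and 58.4 CPM in negative cells.

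Several of the higher genes encode proteins of the cell surface and of synapses. How many of all genes tested do so was not counted, so nothing is read from this grouping. *Pcdh8* (chr14:79766775-79771312, minus strand), a protocadherin of the cell adhesion family, had reads in 10 of 14 positive cells and in 2 of 20 negative cells. Its level ranged from 0 to 643 CPM in positive cells (median 75.9) and from 0 to 152.3 CPM in negative cells (median 0). The difference was 4.34, with 3.43, 2.75 and 3.83 on the 3 dates (SD 0.55). Only 1 negative cell, with 152.3 CPM, lay among the positive cells with high levels. Pooled over cells, the reads gave 146.5 CPM (141.2 to 151.9, exact 95% Poisson interval) against 6.42 CPM (5.51 to 7.43). An interval on reads covers counting error only, since amplified reads are not independent molecules.

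*Cbln4* (chr2:172036233-172043466, minus strand) ranged from 0 to 1143 CPM in positive cells (median 282) and from 0 to 265 CPM in negative cells (median 19.7). It had reads in 12 of 14 and 11 of 20 cells, and the difference was 3.54, with 6.38, 1.25 and 3.08 on the 3 dates. The groups overlapped widely, but the 8 cells with the most *Cbln4* were all positive. *Kirrel3*, an adhesion protein of the immunoglobulin superfamily, had reads in 11 of 14 and 6 of 20 cells and differed by 3.49 (SD 2.72). Its highest cell, with 995 CPM, was nevertheless a negative cell. *Ptprt*, a receptor tyrosine phosphatase, had reads in 9 of 14 and 2 of 20 cells and differed by 3.15, with nearly equal values on the 3 dates (2.74, 3.54 and 3.05). *Col25a1*, a collagen with a membrane anchor, differed by 3.47 (SD 3.07), and *Ephb6*, an Eph receptor without kinase activity, by 3.23 (SD 1.53).

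Other higher genes act in excitability, signalling and metabolism. *Kcnab1*, the beta subunit of Kv1 potassium channels, ranged from 0 to 1677 CPM in positive cells (median 212) and from 0 to 405 CPM in negative cells (median 0), a difference of 3.72 (SD 2.85). *Adora1*, the adenosine A1 receptor, had reads in 8 of 14 and 4 of 20 cells and differed by 3.26 (SD 1.93); its exons overlap those of *Mybph*, so that reads of the 2 genes may be mixed. *Tnfrsf21*, or death receptor 6, was read in all 14 positive cells, at 154.5 to 773 CPM, and in 13 of 20 negative cells, at 0 to 650 CPM. It differed by 3.13 (SD 0.87). *Nol11*, of ribosome biogenesis, *Tubg1*, the gamma-tubulin that starts microtubules, *Moxd1*, a monooxygenase, *Krt222*, a keratin, and *Aldh3a2*, a fatty aldehyde dehydrogenase, were higher by 3.14 to 4.07.

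Among the lower genes were receptors, a channel and *Hpse*. *Hpse* (chr5:100679484-100719716, minus strand) ranged from 0 to 1217 CPM in positive cells (median 0) and from 0 to 882 CPM in negative cells (median 394). It had reads in 6 of 14 positive cells and in 17 of 20 negative cells, and the difference was -3.63, with -2.58, -4.01 and -1.15 on the 3 dates (SD 1.43). The levels of cells with *Hpse* overlapped between the groups, which differed in how many cells had it. Pooled, the level was 206 CPM (200 to 212) against 407 CPM (400 to 415).

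*Cckbr*, the cholecystokinin B receptor, had reads in 1 of 14 positive cells and in 12 of 20 negative cells, with a highest level of 52.1 against 413 CPM and a difference of -3.74 (SD 2.88). *Chrm2*, the muscarinic M2 receptor, showed the same counts of cells, 1 of 14 and 12 of 20, and a difference of -3.36 (SD 2.22). Its exons overlap those of *9330158H04Rik*. A cell without reads may have had the transcript below detection. *Trpc6*, a receptor-operated cation channel, had the largest difference of the lower genes, -3.99 (SD 1.87), with medians of 0.329 and 141.6 CPM. *Pde9a*, which breaks down cyclic GMP, differed by -3.09 (SD 2.99), and *Stxbp2*, a syntaxin-binding protein of the Munc18 family, by -3.09 (SD 1.02). *Igsf9*, of the immunoglobulin superfamily, was read in 3 of 14 and 15 of 20 cells, reached at most 21.98 CPM in positive cells and 514 CPM in negative cells, and differed by -2.96 (SD 0.89).

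Among the lower genes, *Lmna* and *Zmpste24* were put side by side after they were picked. *Lmna*, encoding lamins A and C, was read in all 20 negative cells at 140 to 1423 CPM (median 403) and in 9 of 14 positive cells at 0 to 448 CPM (median 137.2), a difference of -3.60 (SD 2.07). *Zmpste24*, the protease that matures prelamin A, was read in 2 of 14 and 11 of 20 cells, and its 3 within-date differences lay close together at -2.35, -2.41 and -2.44. In V1 L4 it differed by -1.03, with -1.65, 0.67 and 1.56 on the 3 dates there. The others were *Lrrc45*, a centrosome protein (-3.62), *Lamp2*, of the lysosomal membrane (-3.22), *Zdhhc2*, a palmitoyltransferase (-3.18) whose exons overlap *Cnot7*, *Adprhl2*, which removes ADP-ribose (-2.96), *Acsl1*, which activates long-chain fatty acids (-2.88), and *AI593442* (-2.93).

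**Figure D2:**
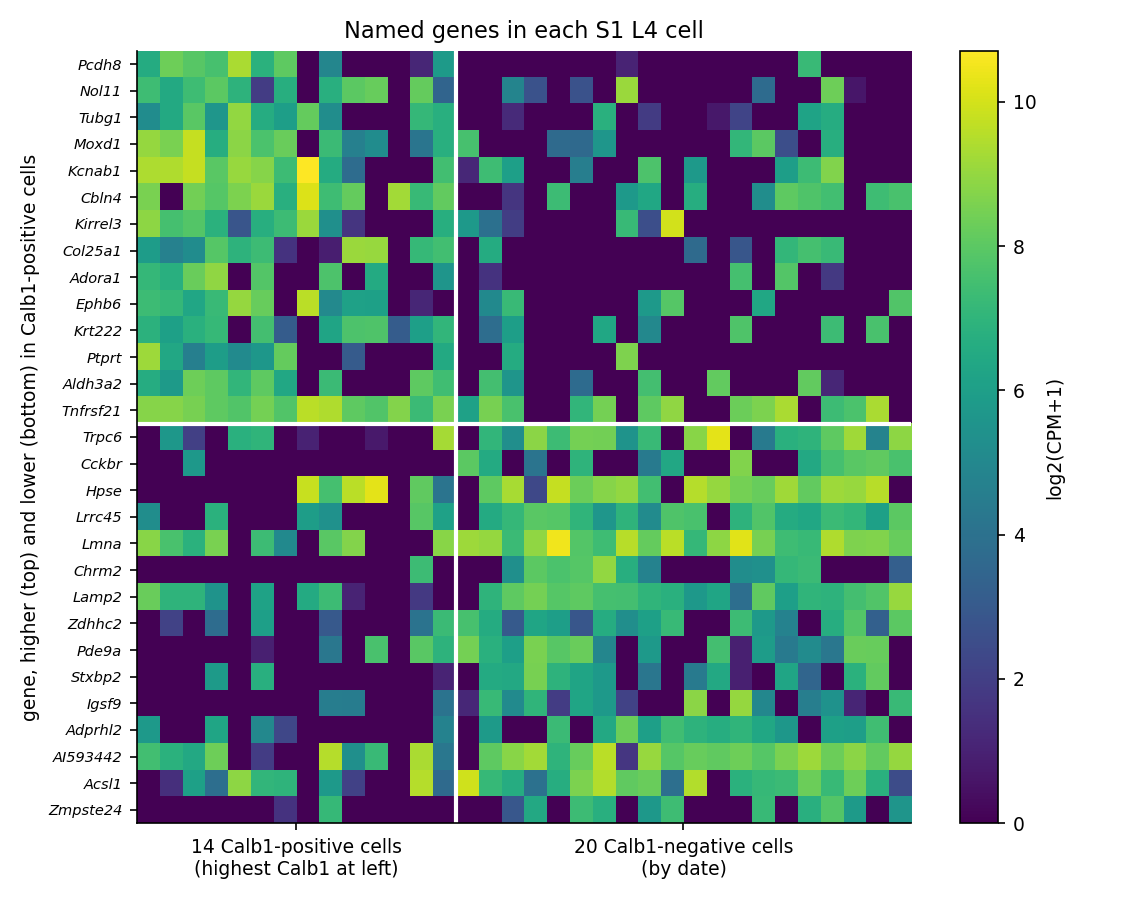
Log2(CPM + 1), as colour, of 29 of the 30 named genes (rows; 14 higher above the white line, 15 lower below it) in the 14 positive cells, from the highest *Calb1* at left, and the 20 negative cells by date. Reads of the higher genes are most regular in the cells at the far left, and several negative cells carry some of them; no gene separates the groups.

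After the values were seen, the positive cells were divided at 100 CPM of *Calb1*, into 8 cells above and 6 below, and the genes given here were chosen. The share of cells with reads lay, in the 6 cells with low *Calb1*, between those of the 8 cells and of the 20 negative cells for 12 of the 15 higher and 8 of the 15 lower genes. How often this order occurs over all genes tested is not given here. The 6 cells were also part of the positive group by which the genes were picked, so nothing is read from these counts. *Hpse* had reads in 1 of the 8, at 903 CPM, in 5 of the 6 with low *Calb1*, at a median of 231 CPM over the 6, and in 17 of the 20 without *Calb1*. *Pcdh8* ran the other way, with reads in 7 of 8, 3 of 6 and 2 of 20 cells and medians of 219, 0.613 and 0 CPM. *Kcnab1* and *Kirrel3* each had reads in all 8 cells with high *Calb1* and in 3 of the 6 with low *Calb1*. *Cbln4* had reads in 7 of 8, 5 of 6 and 11 of 20 cells, with medians of 360, 221 and 19.7 CPM. Other genes did not show this order, such as *Lmna* with reads in 6 of 8, 3 of 6 and 20 of 20 cells and *Krt222* with reads in 6 of 8, 6 of 6 and 7 of 20. The 8 cells also had more genes with a read (median 7830, against 6004 and 5687), and its part in these counts was not tested.

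In V1 L4 the 29 cells with at least 100 CPM of *Calb1* had *Hpse* reads in 12 and *Pcdh8* reads in 22, against 9 and 3 of the 10 cells without *Calb1*. At 100 CPM for both genes, *Calb1* and *Hpse* were found together in 1 of 8 *Calb1*-high cells in S1 L4 (12.5%, 0.316 to 52.7%), while 20 of the 26 other cells had *Hpse* (76.9%, 56.4 to 91.0%). The corresponding shares in V1 L4 were 8 of 29 (27.6%, 12.7 to 47.2%) and 6 of 13 (46.2%, 19.2 to 74.9%). At this cut, set after the values were seen, both genes thus occurred together in some cells of V1 L4 and in a single cell of S1 L4. That cell, from date 9, was also among the cells with the fewest genes read (2881). At 10 CPM for both genes, 3 of 10 *Calb1* cells in S1 L4 (30%) and 10 of 31 in V1 L4 (32.3%) had *Hpse*. Above 0 counts these were 6 of 14 (42.9%) and 13 of 32 (40.6%), so the areas were alike at these lower cuts.

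**Figure D3:**
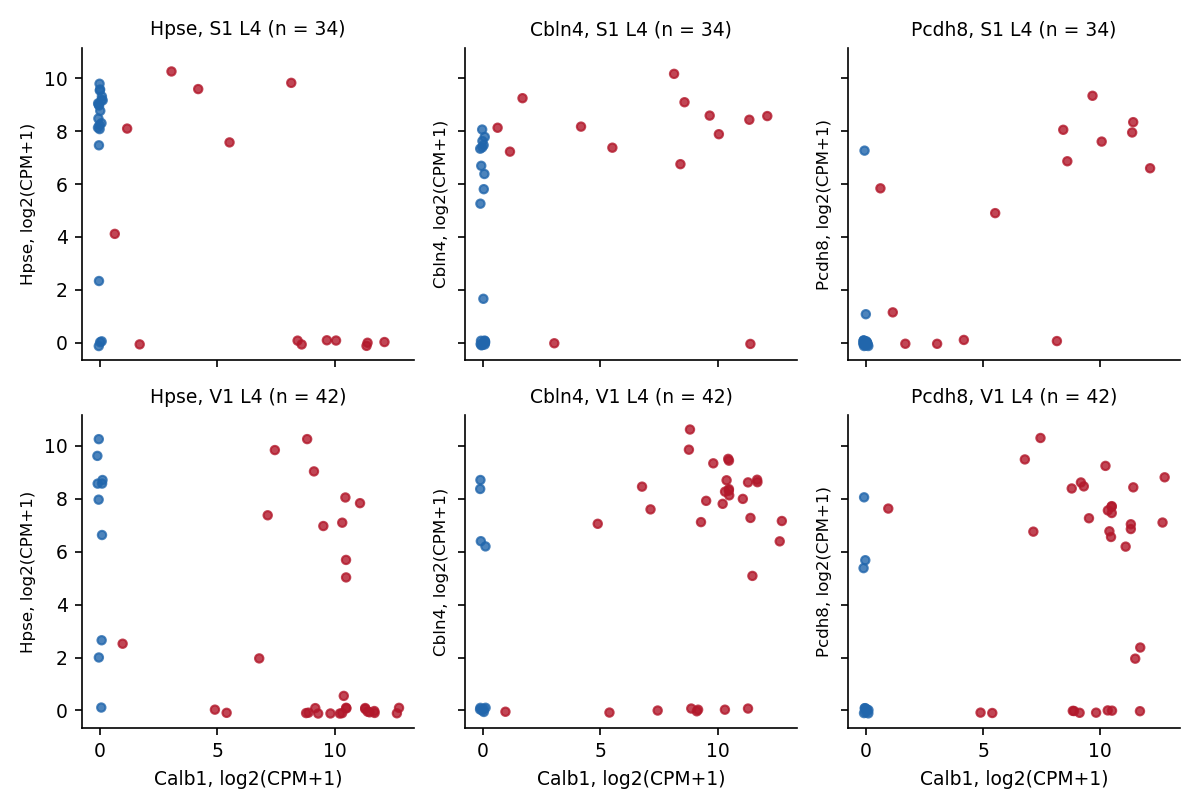
*Hpse*, *Cbln4* and *Pcdh8* against *Calb1*, all in log2(CPM + 1), in the 34 S1 L4 cells (top) and 42 V1 L4 cells (bottom); each point is 1 cell, red with and blue without *Calb1* reads, and points at 0 are spread slightly so that they can be told apart. Of the 8 S1 L4 cells with at least 100 CPM of *Calb1*, 7 lie at 0 for *Hpse* and 7 lie above 0 for *Pcdh8*.

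The V1 L4 cells took no part in choosing the S1 L4 cells or genes and were split in the same way, into 32 positive and 10 negative cells. The areas share dates. Of the 30 named genes, 21 had the same sign of difference in V1 L4 (70.0%), beside 55.3% of all 6620 genes. The 219 genes past 2 with the same sign throughout in S1 L4, which include the 30, had it in 68.0% of cases. Of the 219, 26 passed 2 in V1 L4 in the same direction and 5 in the opposite one. Of the 30, 6 passed a difference of 2 in V1 L4 in the same direction and none in the opposite one, beside 392 (5.92%) and 239 (3.61%) of the 6620 genes. They were *Pcdh8* (3.36), *Cbln4* (3.17), *Ptprt* (2.41) and *Kirrel3* (2.12), and, lower, *Hpse* (-3.93) and *Igsf9* (-2.59). The size of many others did not carry over, among them *Moxd1* (3.96 in S1 L4 and -0.07 in V1 L4), *Tnfrsf21* (-0.16 in V1 L4), *Trpc6* (-0.59), *Lmna* (-0.35) and *Cckbr* (0.52).

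Within dates, the V1 L4 signs were less regular. Of the 30, 4 (13.3%), among them *Adora1*, *Aldh3a2* and *Hpse*, kept the S1 L4 sign on all 3 V1 L4 dates with at least 2 cells of each group, a share close to the 14.7% of all genes tested. For *Hpse* the values were -2.84, -2.36 and -4.56 (SD 1.16). For *Pcdh8* they were -0.13, 5.62 and 2.26 (SD 2.89), and for *Cbln4* -0.08, 5.15 and 6.02 (SD 3.30), so that date 2 showed neither difference. *Ptprt* had 5.44, -3.09 and 2.75 (SD 4.36), *Kirrel3* 2.49, -0.16 and 1.73 (SD 1.37), and *Igsf9* -3.60, 1.03 and -5.53 (SD 3.37). On date 7 each of these had the sign opposite to that in S1 L4.

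**Figure D4:**
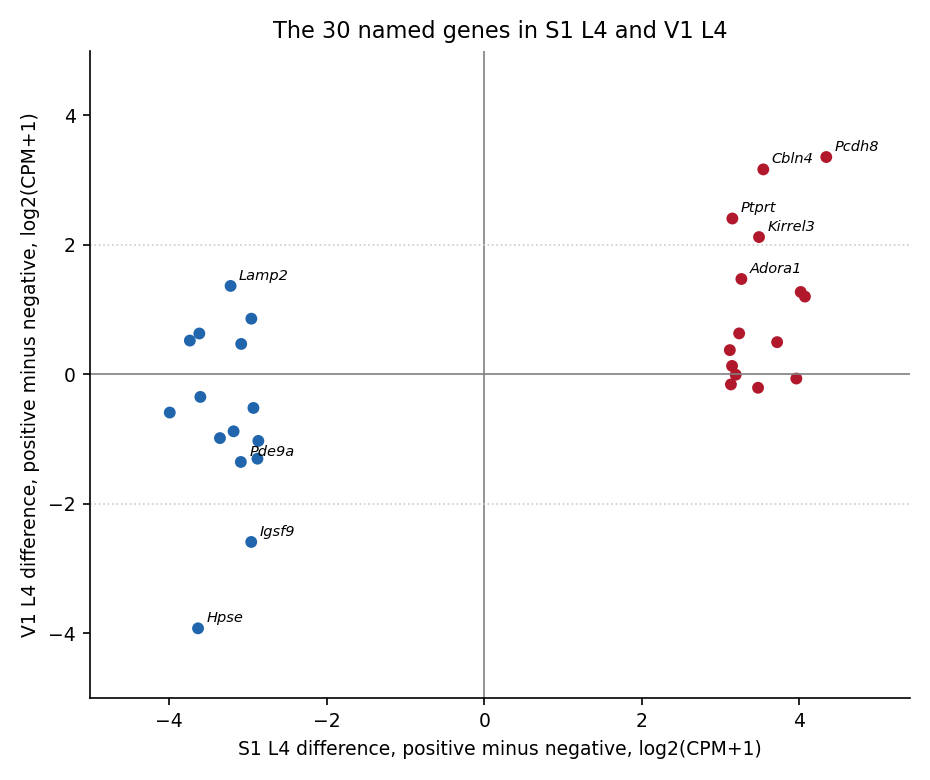
Difference of mean log2(CPM + 1), *Calb1*-positive minus negative, of the 30 named genes in S1 L4 (x axis) and in V1 L4 (y axis); red genes were higher and blue lower in S1 L4, dotted lines mark differences of 2, and the genes farthest from 0 on the y axis are labelled. *Pcdh8*, *Cbln4*, *Ptprt*, *Kirrel3*, *Hpse* and *Igsf9* lie past 2 in both areas, and no gene lies past 2 with the opposite sign.

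L5 was split in the same way after the L4 values were seen. In V1 L5 (11 positive and 6 negative cells) 14 of the 15 higher genes but 5 of the 15 lower genes had the S1 L4 sign. In S1 L5 (8 and 8 cells) the numbers were 8 and 4 of 15. The L5 groups are small, and all genes tested, of both directions together, had the S1 L4 sign in 51.4% and 49.1% of cases. Of the 30, 9 passed 2 in V1 L5 in the same direction and 1 in the opposite one. For all genes tested these were 720 and 647 of 6620. In S1 L5 they were 4 and 3, beside 412 and 432 of all genes. Those opposite included *Trpc6*, at 2.12 in V1 L5 and 5.09 in S1 L5. *Pcdh8* was higher in positive cells of each area and layer, by 3.63 in V1 L5 and 3.74 in S1 L5. *Hpse* differed by -1.60 and 0.85 in these groups, *Cbln4* by 1.62 and -0.04, and *Ptprt* by -0.13 and -4.76. In S1 L5, *Ptprt* had reads in 3 of 8 positive and 6 of 8 negative cells. The sign of all 4 areas and layers was the same for 5 of the higher genes, among them *Pcdh8*, *Nol11*, *Kcnab1* and *Kirrel3*, and for none of the lower genes. These are 16.7% of the 30, near the 15.4% of all genes tested.

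The gene lists below were counted against a background in which 3.13% of the genes tested passed 2 higher and 2.13% lower, 5.26% in all, and 1 or 2 members of a list past 2 are given as values only. Among other calcium-binding proteins, *Calb2* had reads in 4 of 14 positive cells, at up to 371 CPM, and in 1 of 20 negative cells, at 20.4 CPM. The difference was 1.74 (SD 1.47), and all 4 positive cells with *Calb2* had at least 100 CPM of *Calb1*. In V1 L4, 19 of 32 positive and 1 of 10 negative cells had *Calb2* reads, a difference of 3.89 (SD 3.07). *Pvalb* had reads in 9 of 14 and 9 of 20 cells, with a median of 50.7 CPM and at most 257 CPM in positive cells and a median of 0 and at most 55.5 CPM in negative cells. In 1 positive cell *Pvalb* reads outnumbered *Sst* reads (31 against 22), and without that cell the *Pvalb* difference was 2.43. The difference of 2.58 over all cells was not regular over dates (0.00, -0.13 and 3.12), was 0.997 as the mean of these dates and 1.73 without date 2, and was 0.13 in V1 L4. Of the 18 EF-hand genes past the filter, *Pvalb* passed 2, 12 were above 0 and the median was 0.51, against 0.04 for all genes. *Kcnip1*, an EF-hand subunit of Kv4 channels, differed by 1.91 (SD 1.22).

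Calcium channels and pumps showed no common direction. Of 25 genes of calcium entry, release and extrusion, 9 were above and 16 below 0 (median -0.33), and *Atp2b3*, a plasma membrane calcium pump, passed 2 with 2.399 (SD 2.29; 0.22 in V1 L4). Of 30 sodium and potassium channel genes, *Kcnab1* was higher and the Kv1 subunits *Kcna3* and *Kcna6* lower, by differences of -2.16 (SD 1.67) and -2.73 (SD 1.92). In V1 L4 these were -0.18 and 0.39. The median of the list was -0.09.

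Peptide genes differed in *Pnoc*, which encodes the precursor of nociceptin. It had reads in 2 of 14 positive and 13 of 20 negative cells, at up to 78.5 and 273 CPM, a difference of -2.72 (SD 1.89; -4.35, -1.05 and -4.29 on the 3 dates). The V1 L4 difference was -1.58, with -0.37, -2.23 and -3.27 on its dates, and those in V1 L5 and S1 L5 were -1.46 and -1.33. *Pnoc* thus had a lower mean in positive cells in every area and layer, while 15.4% of all genes tested had 1 sign in all 4. It had reads in 2 of 32 positive and 5 of 10 negative V1 L4 cells. In L5 the numbers were closer, with 2 of 11 and 2 of 6 cells in V1 and 3 of 8 and 4 of 8 in S1. *Scg3*, a granin of secretory granules, differed by 2.02 with an SD of 3.84. The median of the 16 peptide genes was -0.40, and 12 of them were below 0. *Reln*, the secreted protein reelin, differed by -1.67 over all cells but by -0.18, -0.31 and 0.46 within dates, by -4.53 in June to July and by 0.20 in September. In V1 L4 *Reln* differed by -2.02, with -1.57, -1.60 and -1.15 on the 3 dates there (SD 0.25). The differences in V1 L5 and S1 L5 were -1.09 and 2.45.

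Of 20 glutamate and GABA-A receptor genes 1 passed 2, *Gabrd*, which is near the background. This subunit of extrasynaptic GABA-A receptors was read in all 20 negative cells at 4.69 to 1930 CPM (median 256) and in 11 of 14 positive cells at 0 to 384 CPM (median 140). The difference was -2.05 (-1.20, -2.26 and 0.78 on the 3 dates), and in V1 L4 it was -3.17 (-3.37, -1.58 and -4.91). Among 14 transmitter receptors coupled to G proteins, *Chrm2* was lower and *Grm5*, the metabotropic glutamate receptor 5, higher by 2.21, although with 6.02, 0.88 and -0.19 on the 3 dates. Of 37 adhesion and guidance genes, *Cbln4* and *Slitrk5* (2.12) were higher and *Slitrk4* (-2.23) lower, the last 2 being synaptic adhesion proteins of 1 family. Of the 3 dates, *Slitrk5* was clearly higher on date 3 only (6.09, against -0.91 and 0.13). Its difference over all cells was 1.33 without date 3 and 1.23 without date 2.

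**Figure D5:**
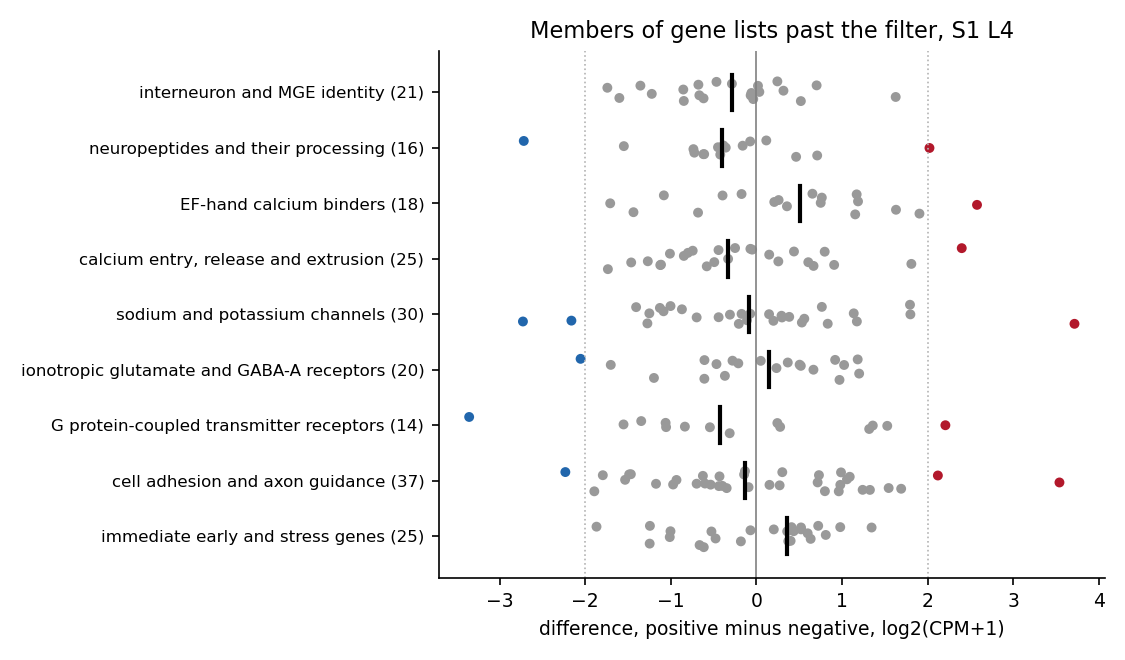
Difference of mean log2(CPM + 1), *Calb1*-positive minus negative S1 L4 cells, of each gene past the filter in 9 gene lists (number of such genes in brackets); black bars are medians, and genes past 2 (dotted lines) are red where higher and blue where lower. List medians lie between -0.43 and 0.51 and each list has members on both sides of 0.

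None of the 21 genes of interneuron identity passed 2, where 7 were above and 14 below 0 (median -0.29), and neither did any of the 25 immediate early and stress genes (median 0.36). With 5.26% of all genes past 2, nothing is read from these counts. Of 30 genes that name somatostatin types in the reference catalogue, only *Hpse* and *Cbln4* met the filter on low counts. *Pdlim5* was read in 1 cell of each group.

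Markers of other cells were read in both groups. The sum of 10 markers of *Pvalb* interneurons ranged from 158.1 to 1909 CPM in positive cells (median 1027) and from 170.8 to 1368 CPM in negative cells (median 710), with *Tac1* and *Syt2* at 0 in all cells. Of its 6 members past the filter, 2 passed a difference of 2, *Pvalb* and *Akr1c18*, a steroid dehydrogenase (2.72; -0.26 in V1 L4). The sum of 14 oligodendrocyte markers ranged from 0 to 10099 CPM (median 821) in positive cells and from 0 to 5432 CPM (median 469) in negative cells, with *Olig2* at 0 in all. *Mbp*, a myelin protein, differed by 1.75 (SD 0.65), higher on all 3 dates. Of 12 microglia markers 4 met the filter, all above 0 (median 1.43), with sums of 0 to 924 CPM (median 354) and of 0 to 2485 CPM (median 265). For 12 astrocyte markers the medians were 364 and 470 CPM but the means 625 and 469 CPM, and *Gfap* was at 0. The 3 astrocyte markers that met the filter were all above 0 (median 0.68), as were the 3 oligodendrocyte markers that met it (median 0.92). For 10 *Vip* interneuron markers the median sums were 45.5 and 223 CPM, where *Igf1*, a growth factor, differed by -2.42 (-1.53 in V1 L4). For 10 *Lamp5* and *Sncg* interneuron markers they were 1289 and 1665 CPM, most of it *Npy* and *Reln*, and for 14 excitatory neuron markers 363 and 297 CPM. The 12 endothelial and mural markers had medians of 0.766 and 0 CPM. The part of these cells in the differences above was not tested. Without the 13 cells over 1000 CPM of oligodendrocyte markers, an alternative added after seeing the data, the difference of *Hpse* was -4.81, of *Pcdh8* 5.95 and of *Cbln4* 3.43.

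The rest of the profile was compared through nearest cells, found by Pearson's r over 999 variable genes without *Calb1* among cells of other dates. Of the 5 nearest S1 L4 cells of a positive cell, 45.7% were positive, beside 39.5% of the eligible cells. For negative cells it was 29% beside 41.8%. The excess among positive cells, 6.22 percentage points, was -4.53 within the same date series. The deficit among negative cells, -12.8 points, was 0.361 points within the same date series and 4.18 with Spearman's correlation. Within the same date series neither lean to the cell's own group was thus seen. With Spearman's correlation the excess among positive cells was 16.2 points, so that only the lean of negative cells was lost. Among L4 cells of both areas, V1 cells made up 60.0% of the nearest cells of positive S1 L4 cells, beside 55.2% of the eligible, and 35% beside 56.9% for negative S1 L4 cells. The deficit of V1 cells around negative cells, -21.9 points (SD 9.72 over dates), was between -10.9 and -24.4 points under every alternative run. For positive cells it was 4.83 points, with an SD of 28.3 over dates. The difference between the 2 groups of cells was not tested.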

How the data were processed

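Each sample is the RNA of 1 cell. The authors aligned the reads to mm10 with STAR (version 2.4.2a) and deposited 1 table of raw read counts per gene, with no normalization, and 1 table of RPKM values from rpkmforgenes with RefSeq models. The counting step is not given in the sources used here. The counts served all results and the RPKM values deposited by the authors 1 alternative. The 24490 entries were summed by symbol to 23998. Counts were divided by the cell's total on genes and expressed as log2(CPM + 1), with a pseudocount of 1, and a difference of this scale understates the change of low genes. Cells and genes were filtered and split as given in the text. As each sample is 1 cell, no doublets were called.

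The members and lists were chosen with earlier results of these data known. The named genes are the 15 largest differences each way among genes with the same sign in both date series and on every date with at least 2 cells of each group, a fixed set (*Calb1*, *Sst*, *Hpse*, *Cbln4*, *Calb2*, *Pdlim5*, *Pvalb*, *Npy*, *Cort*, *Reln*, *Gad1*, *Gad2*, *Slc17a7*, *Lhx6* and *Mbp*), and list members past 2. Some results under this rule and these lists are not reported here. Other genes given with values were chosen after these were seen. Variable genes followed the rule in the study's methods (slope 1.5, offset 0.02). Thinning drew reads without replacement (seed 1). The functions were tested on simulated counts. Coordinates are from a GENCODE annotation of GRCm38. TMM scaling used edgeR 4.0.16 in R 4.3.3, and the rest pandas 2.3.3, NumPy 2.4.6 and SciPy 1.17.1 under Python 3.11.15, with figures by matplotlib 3.10.9. Reference sequences were not used.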

Additional observations from a re-analysis of the deposited data

Results flagged for a closer look

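*Col25a1* differed between the areas in sign. In S1 L4 it was higher in *Calb1*-positive cells on each of the 3 dates with enough cells (6.57, 2.91 and 0.46), and in V1 L4 it was lower on each of the 3 (-1.70, -0.43 and -0.60), where the difference over all cells was -0.21. The difference between areas was not tested, and 11.1% of all genes tested had the opposite sign on all 3 V1 L4 dates.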

How the results depend on the processing

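No paired analysis was possible because the results come from no test and the replicate numbers follow accession order; differences within dates, and their mean, were computed instead. The share of genes past 2 depended on the processing, against 3.13% higher and 2.13% lower in the report. It was 5.65% higher with positive set at 10 CPM, 1.28% and 0.816% with RPKM, 0.106% and 0.0906% with a pseudocount of 10, 7.97% and 0.802% in cells with at least 4000 genes, 1.90% higher with *Sst* at 0 allowed, 11.1% and 6.54% in June to July, 6.25% and 7.28% in September, 6.74% and 4.15% as the mean of dates, 15.8% and 9.92% with medians over cells, and 8.46% higher without the cells rich in oligodendrocyte markers. Without each date in turn it ranged from 2.93% to 5.59% higher and from 1.93% to 5.32% lower, and was over 1.5 times the reported share without date 7 (both), and, for lower genes, without dates 2 (3.41%), 3 (3.77%) and 9 (3.44%). Of the 42 genes followed that were past 2, *Slitrk5* alone changed sign, at -0.26 in September; the choice of the named genes fixes their sign on dates and in both series. Of the 11 followed that were under 2, 9 changed sign under some alternative, among them *Reln* and *Cort* in September. The excess of positive cells around positive cells was 1.93 percentage points with 10 neighbours, 14.8 and 10.5 with 500 and 2000 variable genes, 16.2 with Spearman's correlation, -4.53 within series and 15.9 without cells of 1 to 9 *Calb1* reads. Around negative cells it was 4.18 with Spearman's correlation, which also gave -10.9 for V1 cells. Unless given by fewer cells or genes entering, the cause was not tested. Depth limits the split itself, since 3 positive cells had 1 or 2 *Calb1* reads.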

Other observations

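*Cort*, encoding cortistatin, had reads in 7 of 14 *Calb1*-positive and 10 of 20 *Calb1*-negative S1 L4 cells, at up to 275 and 56.5 CPM. Its difference was 0.64 over all cells, 2.90 in June to July and -1.02 in September. Of the 5 S1 L4 cells that were left out, 2 had *Calb1* reads.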
